A study of Mus musculus with 2 samples.

Results

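The 10 genes described here are Wnt2, Wnt4, Wnt5b, Rspo3, Sfrp1, Sfrp2, Sfrp4, Dkk2, Dkk3 and Dact1, found by symbol among the 32246 symbols measured, in single cells of mouse subcutaneous fat. Stromal vascular fraction cells negative for the blood cell marker CD45 were sorted by flow cytometry and sequenced with droplet 3' RNA-seq, in 1 library from Paqr4 transgenic animals and 1 from WT animals. Cells of 3 mice were pooled, and the sources used here do not say whether that was per genotype, nor do they give the transgene's promoter or the animals' strain, sex or age. Neither genotype has a second library, so no test between genotypes was run and every difference below compares 2 libraries. The genes were chosen by symbol, but selected on earlier readings of their UMI levels across the states and genotypes of these same libraries, so those levels are given as a description. Of the 10, 9 encode secreted proteins, while Dact1 acts inside the cell.

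Wnt ligands bind Frizzled receptors together with Lrp co-receptors, which stabilises β-catenin and turns on target genes, or they signal through routes that do not use β-catenin. Around the ligand stand secreted proteins. Sfrp proteins bind Wnts outside the cell, Dkk2 binds the Lrp co-receptors, and Rspo3 binds Lgr receptors and relieves the removal of Frizzled by Znrf3 and Rnf43. In fat, Wnt signalling through β-catenin is known for holding back the differentiation of progenitors into adipocytes.

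Sfrp2 and Dkk2 were lower in the Paqr4 transgenic library, and Wnt5b and Dact1 were higher. The RefSeq promoters of Sfrp2, Dkk2 and Dact1 (build GRCm38.p6, plus strand, from 250 bases before to 50 bases after the start) are shown because these genes carry results in both directions and have 1 listed promoter each, while Wnt5b has 3. Any match to the TATA box TATAAA is in capitals. They lie at chr3:83766071-83766370 for Sfrp2, chr3:132085042-132085341 for Dkk2 and chr12:71309634-71309933 for Dact1.
Sfrp2: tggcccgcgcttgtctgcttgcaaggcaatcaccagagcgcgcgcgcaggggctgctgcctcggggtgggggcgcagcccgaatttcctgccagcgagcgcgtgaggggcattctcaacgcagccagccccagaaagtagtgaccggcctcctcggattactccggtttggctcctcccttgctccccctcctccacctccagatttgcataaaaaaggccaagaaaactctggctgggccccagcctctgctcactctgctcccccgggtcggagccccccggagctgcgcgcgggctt
Dkk2: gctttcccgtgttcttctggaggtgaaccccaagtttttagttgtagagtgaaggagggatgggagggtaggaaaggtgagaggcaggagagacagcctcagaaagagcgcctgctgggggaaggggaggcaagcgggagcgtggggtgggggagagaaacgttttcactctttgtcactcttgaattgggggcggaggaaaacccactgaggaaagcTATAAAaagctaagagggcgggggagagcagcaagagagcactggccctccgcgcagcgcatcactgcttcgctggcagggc
Dact1: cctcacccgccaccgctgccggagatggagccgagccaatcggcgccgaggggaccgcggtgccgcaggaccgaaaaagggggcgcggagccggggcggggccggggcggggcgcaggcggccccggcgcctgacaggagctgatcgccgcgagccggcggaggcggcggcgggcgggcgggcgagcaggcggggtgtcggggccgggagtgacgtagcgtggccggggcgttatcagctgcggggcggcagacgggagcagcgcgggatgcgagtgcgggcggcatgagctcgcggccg
The share of G and C was 66.0% in the Sfrp2 window, 57.7% in that of Dkk2 and 79.7% in that of Dact1. RefSeq gave 8 promoters for 6 of the 10 genes, namely Sfrp2, Dkk2, Wnt2, Wnt4, Wnt5b and Dact1. TATAAA or its reverse complement TTTATA was in 1 of these 8, the Dkk2 promoter printed above, and in 13.6% of 32851 RefSeq promoters. The TCF/LEF core CTTTGA or its reverse complement TCAAAG was in 1 of the 8, a Wnt5b promoter, and in 16% of all. The motifs do not overlap each other by their letters, and a match says only that these letters are present. In GENCODE M21 (GRCm38), Wnt2 lies at chr6:17988940-18030585 and Wnt5b at chr6:119432531-119544347, both on the minus strand. Wnt4 lies at chr4:137277489-137299726, Sfrp1 at chr8:23411502-23449632 and Sfrp4 at chr13:19623104-19632994, all on the plus strand. Dkk3 lies at chr7:112116017-112159057 and Rspo3 at chr10:29452416-29535867, both on the minus strand.

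The Paqr4 transgenic library held 1521 cells after removal of doublets, with a median of 18711 UMIs (unique molecular identifiers, each a counted RNA molecule) and 4480 genes. The WT library held 1328 cells, with medians of 21612.5 UMIs and 4650 genes, and the libraries shared 0 cell barcodes. Paqr4 itself, the transgene's gene, had 9.51 UPM (UMIs of the gene per 1000000 UMIs of the same cells) in transgenic progenitors and 7.75 UPM in WT progenitors, a log2 ratio of 0.30 (counting interval 0.02 to 0.58). The libraries also differed in the sex of their cells: Xist was seen in 0.230% of transgenic and 94.3% of WT progenitors, and 4 genes of the Y chromosome in 93.9% and 2.13%. Sex and genotype cannot be told apart in any difference below. All intervals are at 95% and cover counting error only, not the spread between animals. Those of levels and ratios take UMIs as independent, so they also leave out the spread between cells. A ratio is Paqr4 transgenic over WT, so a positive log2 value is higher in transgenic cells.

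Progenitors were 1307 transgenic and 1078 WT cells in 5 states, made of 6 clusters that each held 8 or 9 of the 9 progenitor markers searched. The Wnt genes were left out of the clustering that set the states. The Dpp4-like state, named for a marker of early progenitors, held 186 transgenic cells (14.2% of progenitors, 12.4 to 16.2) and 233 WT cells (21.6%, 19.2 to 24.2), with 11 of its 11 markers on in both libraries. The F3-like state held 370 and 282 cells and rested on 4 of its 10 markers, with C7, Cilp and Ccn2 among its leading genes and immunoglobulin genes from a few cells. The Icam1-like state, named for a marker of committed preadipocytes, held 431 transgenic and 216 WT cells. It joins clusters 2 and 9, of which cluster 9 held 11 of the transgenic and 38 of the WT cells. A pair of clusters met no marker list and keep their numbers. Cluster 3, led by Il6, Procr, Ifit1 and Tfpi2, held 217 transgenic and 317 WT cells, and cluster 6, led by Nkain3, Itgbl1 and Tgfbi, held 103 and 30. The 10 F3-like markers summed to 3793 UPM in transgenic and 2896 UPM in WT F3-like cells. In cluster 6 they summed to 3683 and 4485 UPM, so this sum did not set the F3-like state apart from cluster 6. The medians of UMIs per cell were lower in the transgenic library in all 5 states, at 16371 to 22832 against 20660.5 to 25612 in WT.

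In the 79 transgenic and 95 WT endothelial cells (median 7584 and 9857 UMIs), no member had more than 3 UMIs in either library, and at most 1 cell of a library held a UMI of any of them. These cells serve as the background for the shares below, since free RNA in the droplets reaches every cell type. Free RNA, read from barcodes with at most 50 UMIs, was estimated from haemoglobin genes at 0.271% of transgenic and 0.439% of WT progenitor UMIs. That estimate takes all haemoglobin RNA in progenitors as free RNA, and it was not made for endothelial cells. Some members were also found in small classes outside the progenitors. Sfrp1 had 621 UPM in 3 transgenic and 660 UPM in 6 WT Schwann cells, and Wnt4 had 106 UPM in 6 transgenic and 140 UPM in 9 WT epithelial cells. In mesothelial cells (11 transgenic, 12 WT) Wnt5b had 54.6 and 58.9 UPM, Dkk3 had 49.2 and 63.1 UPM, and Sfrp2 had 49.2 and 122 UPM. In lymphatic endothelial cells (6 and 6) Rspo3 had 1 UMI in transgenic and 12 UMIs in WT cells.

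**Figure D1:**
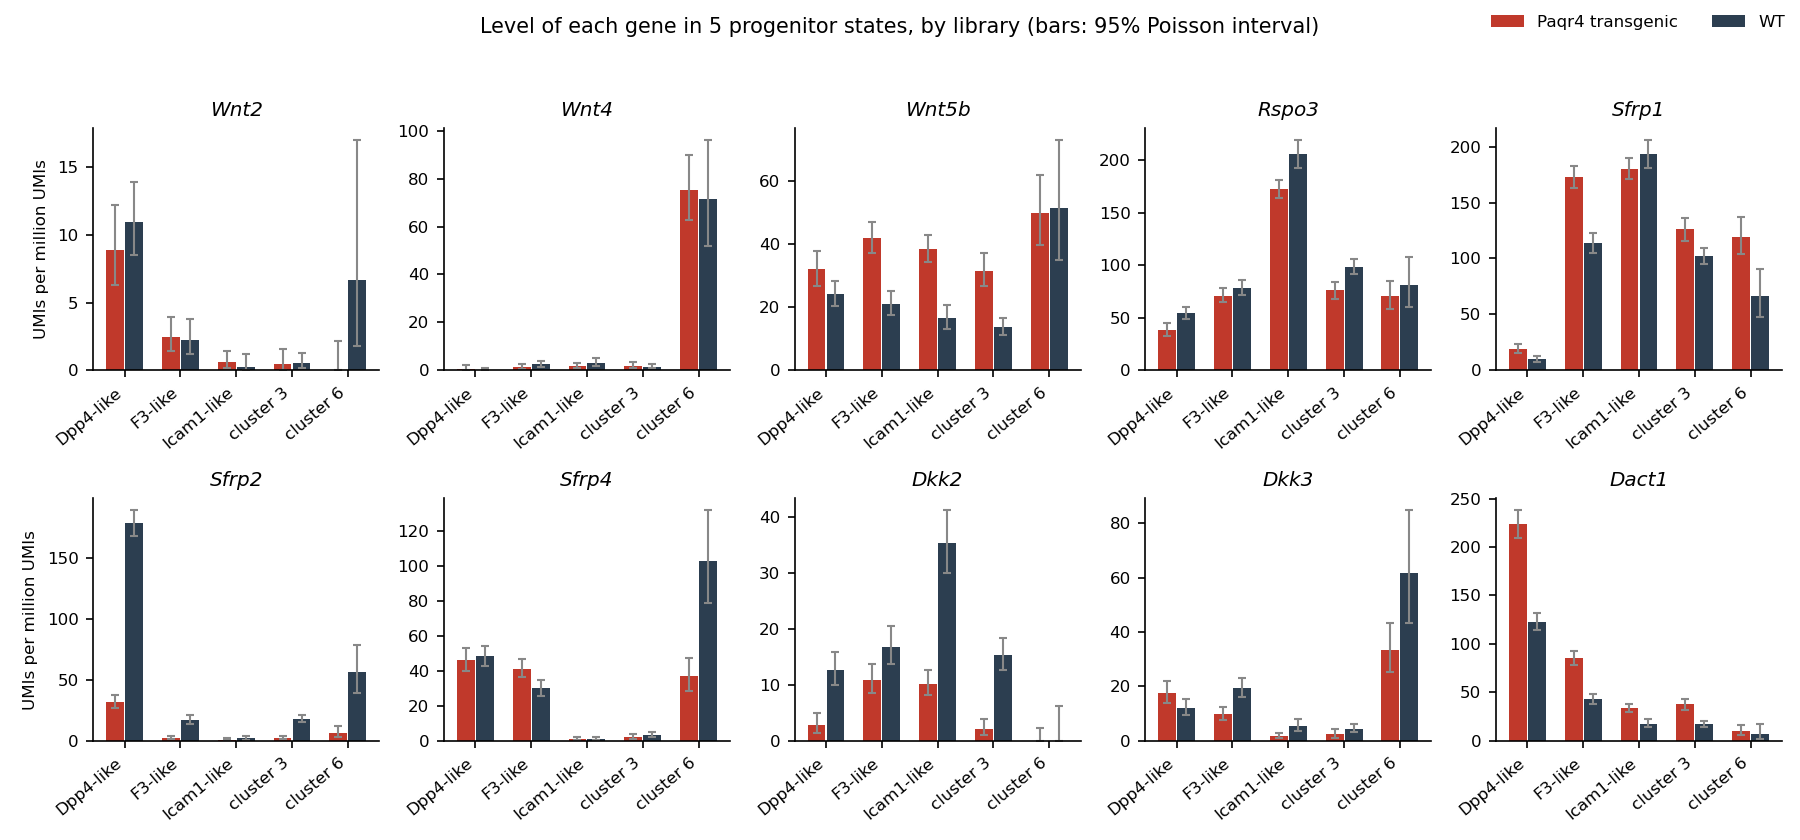
Level of each of the 10 genes in UPM (UMIs of the gene per 1000000 UMIs), on a linear scale, in the 5 progenitor states of the Paqr4 transgenic library and of the WT library. Sfrp2, Wnt2 and Dact1 were highest in the Dpp4-like state of both libraries, Sfrp1 and Rspo3 in the Icam1-like state, and Wnt4, Wnt5b and Dkk3 in cluster 6.

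Of the 10 genes, 8 were highest in the same state in both libraries. The exceptions were Sfrp4 and Dkk2. Sfrp2, Wnt2 and Dact1 were highest in the Dpp4-like state, also in all 7 clusterings of both libraries together, whereas Sfrp1 was lowest there. The highest state of Sfrp1 was the same in both libraries in 5 of these clusterings, but it was not always the Icam1-like one. With cells of 2000 or more UMIs, or of at most 5% mitochondrial UMIs, it was the F3-like state in both libraries. In the clustering used here these states were close in the transgenic library, at 180 UPM (Icam1-like) and 173 UPM (F3-like). The plot of levels by state shows the order of that clustering in both libraries.

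Among the ligands, Wnt5b, a Wnt that mostly signals without β-catenin, was higher in transgenic progenitors. It had 37.7 UPM (35.4 to 40.2) in transgenic and 19.4 UPM (17.7 to 21.2) in WT progenitors, a 1.95-fold difference (log2 0.96, 0.80 to 1.12). The share of cells with a Wnt5b UMI was 27.2% in transgenic and 18% in WT progenitors. With every cell thinned to 5000 UMIs, which left 1265 transgenic and 1054 WT progenitors, it was 12.3% (10.5 to 14.2) and 7.12% (5.64 to 8.84). The transgenic share was the higher one both before and after thinning.

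Wnt5b was not equally different in every state. In the F3-like state it had 41.9 UPM in transgenic and 21 UPM in WT cells (log2 0.99, 0.68 to 1.31). In the Icam1-like state it had 38.4 and 16.6 UPM (log2 1.21, 0.84 to 1.59), and in cluster 3 it had 31.6 and 13.6 UPM (log2 1.21, 0.84 to 1.58). In the Dpp4-like state the values were closer, at 32 UPM in transgenic and 24 UPM in WT cells (log2 0.41, 0.07 to 0.76), and the thinned shares there were in the opposite order, at 8.74% of 183 cells and 10.0% of 230, so no order is read from them. In cluster 6, where it was highest, it had 49.9 and 51.6 UPM (log2 −0.05, −0.66 to 0.60).

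Wnt4, a ligand of epithelial and stromal development, was mostly a gene of cluster 6. That cluster held 78.4% of the Wnt4 UMIs of transgenic progenitors and 51.2% of those of WT progenitors. Over all progenitors Wnt4 had 6.31 UPM (5.38 to 7.37) in transgenic and 3.37 UPM (2.69 to 4.17) in WT cells (log2 0.91, 0.52 to 1.30). Within cluster 6 it had 75.5 and 71.6 UPM (log2 0.08, −0.43 to 0.61), with a UMI in 47.6% of transgenic and 56.7% of WT cells. At 5000 UMIs per cell the shares were in the opposite order, at 25.3% of 99 transgenic and 23.3% of 30 WT cells, so no order is read from them. Cluster 6 itself was 7.88% (6.48 to 9.48) of transgenic and 2.78% (1.89 to 3.95) of WT progenitors. With equal weight for each state the log2 ratio was 0.04.

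Wnt2, a ligand that signals through β-catenin, was scarce, with 61 UMIs in transgenic and 89 UMIs in WT progenitors. It had 2.38 UPM (1.82 to 3.05) and 3.57 UPM (2.87 to 4.40), a log2 ratio of −0.59 (−1.08 to −0.10). The Dpp4-like state held 62.3% of these UMIs in the transgenic and 75.3% in the WT library, at 8.88 and 11.0 UPM (log2 −0.30, −0.92 to 0.29). Within its main state the libraries did not differ beyond counting error.

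Rspo3, the R-spondin that amplifies Wnt signals, was nearly equal over all progenitors, at 99.6 UPM (95.8 to 104) in transgenic and 102 UPM (98.2 to 106) in WT cells (log2 −0.04, −0.12 to 0.04). Within each of the 5 states it was lower in transgenic cells, and 3 of these intervals lay below 0. It had 172 UPM in transgenic and 206 UPM in WT Icam1-like cells (log2 −0.26, −0.38 to −0.14), 75.9 and 98.6 UPM in cluster 3 (log2 −0.38, −0.56 to −0.20), and 38.6 and 54.5 UPM in the Dpp4-like state (log2 −0.50, −0.78 to −0.23). The clusters of the Icam1-like state differed for Rspo3, with a log2 ratio of −0.18 (−0.31 to −0.05) in cluster 2 and 0.48 (0.05 to 0.89) in cluster 9, where it had 406 UPM in 11 transgenic and 292 UPM in 38 WT cells. The Icam1-like state, where Rspo3 was highest, was 33.0% of transgenic and 20.04% of WT progenitors.

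**Figure D2:**
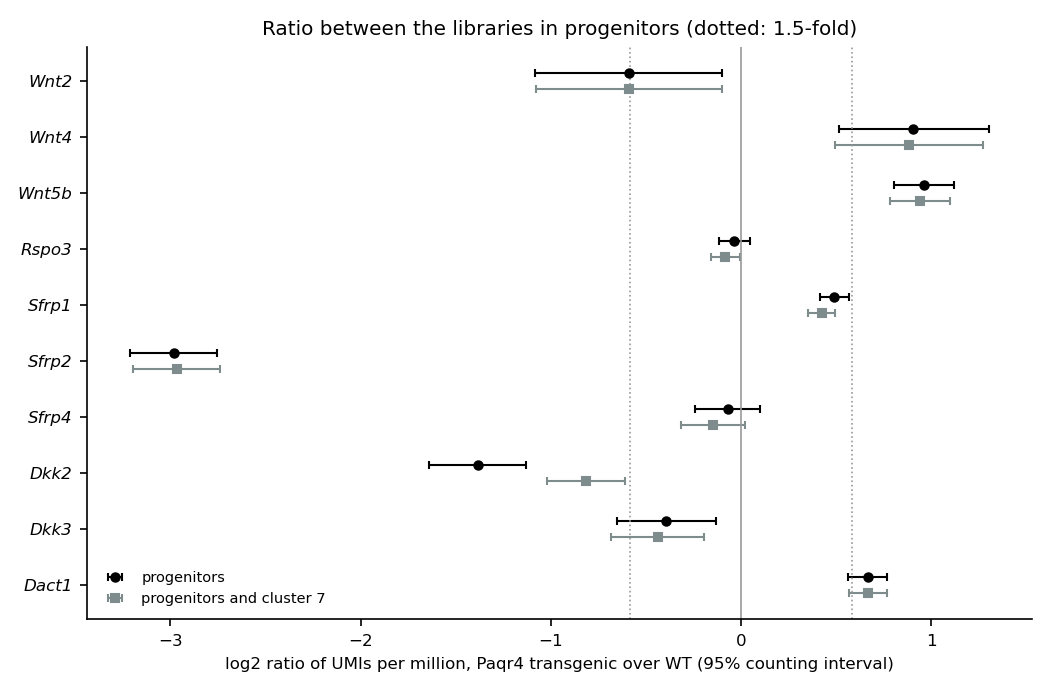
Log2 ratio of UPM, Paqr4 transgenic over WT, of each of the 10 genes over all progenitors (black circles) and with cluster 7 counted among them (grey squares), with 95% counting intervals and dotted lines at 1.5-fold. Over the progenitors Sfrp2 (−2.98) and Dkk2 (−1.39) lie lowest, Wnt5b (0.96), Wnt4 (0.91) and Dact1 (0.67) highest, and the intervals of Rspo3 and Sfrp4 include 0.

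Sfrp2, a secreted Wnt-binding protein, had the lowest ratio of the 10 genes. It had 7.02 UPM (6.03 to 8.12, 180 UMIs) in transgenic and 55.3 UPM (52.4 to 58.3, 1378 UMIs) in WT progenitors, which is 7.88-fold lower in transgenic cells (log2 −2.98, −3.21 to −2.75). A UMI was seen in 5.66% of transgenic and 23.7% of WT progenitors. At 5000 UMIs per cell the shares were 2.13% (1.41 to 3.09) and 13.9% (11.8 to 16.1), so the transgenic share was also lower at equal depth.

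Cells rich in Sfrp2 were fewer too. At least 5 UMIs were found in 10 transgenic and 93 WT progenitors, and the richest cell held 10 UMIs in the transgenic and 43 in the WT library. The 5 richest cells held 26.1% of the UMIs in transgenic and 12.2% in WT progenitors, so the WT level did not rest on a few cells.

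The Dpp4-like state held most Sfrp2 UMIs, 75.6% of those of transgenic and 79.2% of those of WT progenitors. Within that state Sfrp2 had 31.8 UPM in 186 transgenic cells and 179 UPM in 233 WT cells (log2 −2.49, −2.76 to −2.23). A UMI was found in 24.7% of transgenic and 74.2% of WT Dpp4-like cells, and at 5000 UMIs per cell in 10.4% (6.37 to 15.7) and 47.8% (41.2 to 54.5). The summed level of the 11 Dpp4-like markers was 8165 UPM in the transgenic and 8039 UPM in the WT cells of that state. The state was named by these markers, so their like sums do not show that its cells were alike otherwise. The 9 progenitor markers summed to 18862 UPM in its transgenic and 23530 UPM in its WT cells.

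Sfrp2 was also lower where it was scarce. It had 2.12 UPM in transgenic and 17.3 UPM in WT F3-like cells (log2 −3.02), 2.33 and 18.1 UPM in cluster 3 (log2 −2.96) and 6.54 and 56.6 UPM in cluster 6 (log2 −3.11). In the Icam1-like state both libraries were near the floor of detection, with 8 and 9 UMIs, and the interval of the log2 ratio, −2.64 to 0.48, included 0. In the free RNA Sfrp2 had 8.59 UPM in the transgenic and 30.1 UPM in the WT library, the same order as in the cells.

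**Figure D3:**
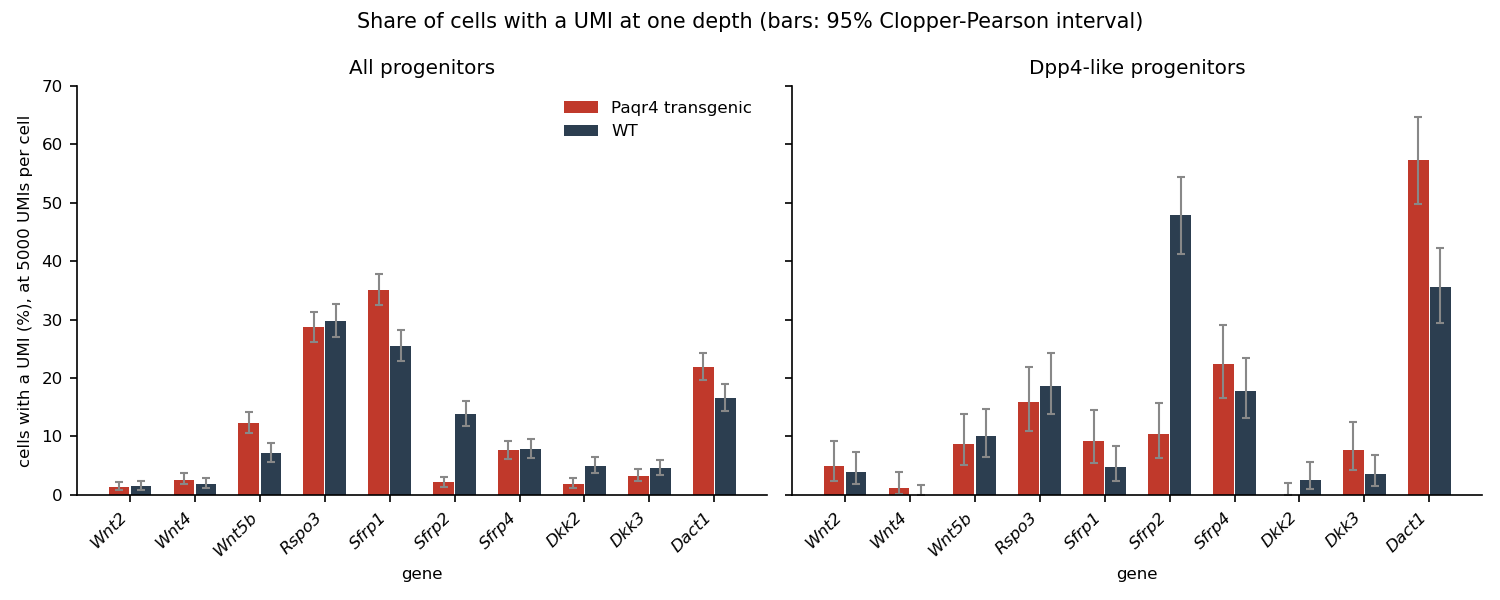
Share of cells with at least 1 UMI of each gene after every cell was thinned to 5000 UMIs, in percent with exact binomial 95% intervals, for Paqr4 transgenic and WT cells of all progenitors and of the Dpp4-like state. In the Dpp4-like state Sfrp2 was in 10.4% of transgenic and 47.8% of WT cells, and Dact1 in 57.4% and 35.7%.

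Sfrp1, another secreted Wnt-binding protein, was higher in transgenic progenitors, at 137 UPM (133 to 142) against 97.8 UPM (94.0 to 102) in WT progenitors (log2 0.49, 0.42 to 0.57). The shares of cells with a UMI at 5000 UMIs were 35.1% (32.5 to 37.8) in transgenic and 25.5% (22.9 to 28.3) in WT progenitors. The level was high in every state but the Dpp4-like one, where it was 18.9 UPM in transgenic and 10.1 UPM in WT cells (log2 0.90, 0.41 to 1.40).

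By state, Sfrp1 was higher in 4 of the 5. It had 173 UPM in transgenic and 114 UPM in WT F3-like cells (log2 0.60, 0.46 to 0.74), 126 and 102 UPM in cluster 3 (log2 0.31, 0.15 to 0.46) and 120 and 66.6 UPM in cluster 6 (log2 0.84, 0.35 to 1.37). In the Icam1-like state it had 180 and 193 UPM, and the interval of the log2 ratio, −0.22 to 0.02, included 0. In cluster 2 alone, without the cluster 9 cells, it was lower, at 181 UPM in transgenic and 213 UPM in WT cells (log2 −0.23, −0.35 to −0.10). Over all progenitors, Sfrp1 and Sfrp2 differed in opposite directions between the libraries.

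Sfrp4, also a secreted Wnt-binding protein, was alike over all progenitors, at 21.6 UPM (19.8 to 23.5) in transgenic and 22.7 UPM (20.8 to 24.6) in WT cells (log2 −0.07, −0.24 to 0.10). In the Dpp4-like state it had 46.5 and 48.4 UPM (log2 −0.06, −0.33 to 0.21). In the F3-like state it had 41.4 UPM in transgenic and 30.1 UPM in WT cells (log2 0.46, 0.18 to 0.74). In cluster 6 it had 36.9 and 103 UPM (log2 −1.48, −2.02 to −0.95), where the 5 richest cells held 88.7% of the UMIs in each library and 1 transgenic cell held 40 UMIs.

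**Figure D4:**
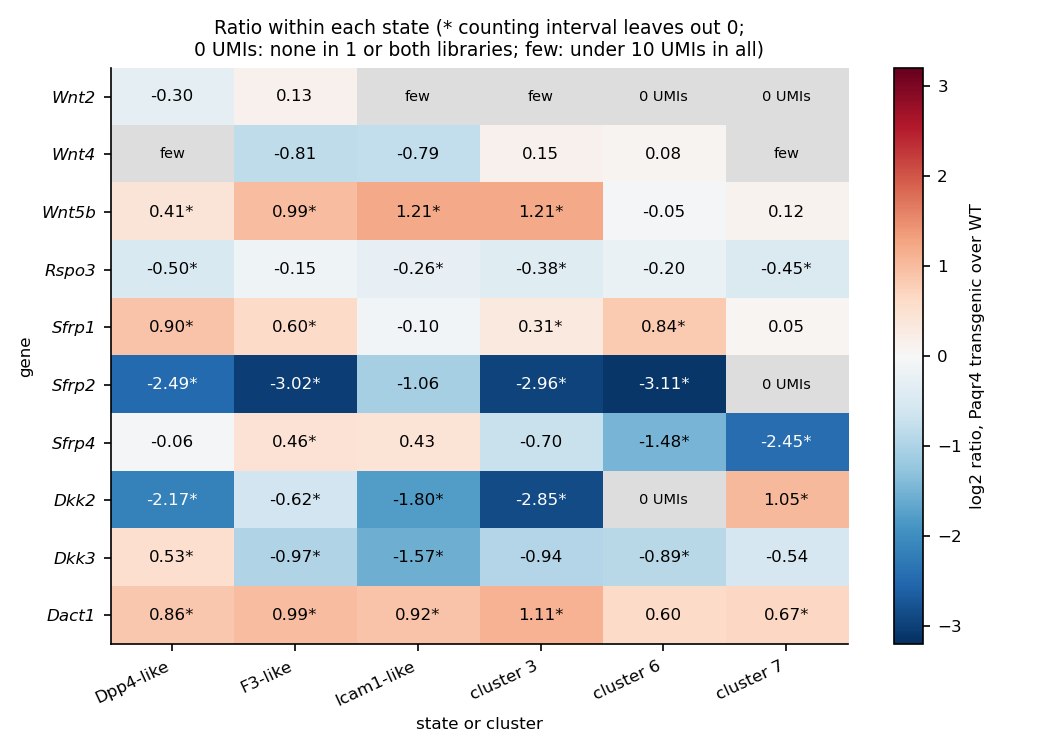
Log2 ratio of UPM, Paqr4 transgenic over WT, for each of the 10 genes in each of the 5 progenitor states and in cluster 7, as a colour scale. Grey places held fewer than 10 UMIs in both libraries together, or no UMI in a library. Sfrp2 was lower in all 5 states it was measured in, while Dact1 was higher and Rspo3 lower in 5 of 5. The counting interval left out 0 in 4 of these states for Sfrp2, 4 for Dact1 and 3 for Rspo3.

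Dkk2, a secreted protein that binds Lrp co-receptors, was lower in transgenic progenitors. It had 6.98 UPM (5.99 to 8.08, 179 UMIs) in transgenic and 18.2 UPM (16.6 to 19.98, 454 UMIs) in WT progenitors, 2.61-fold lower in transgenic cells (log2 −1.39, −1.64 to −1.13). The share at 5000 UMIs per cell was 1.90% (1.22 to 2.81) in transgenic and 4.93% (3.71 to 6.42) in WT progenitors. The 5 richest cells held 40.2% of the transgenic and 19.4% of the WT UMIs, so a few cells weigh heavily in this gene's level.

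Dkk2 was lower in the 4 states that held it. It had 10.1 UPM in transgenic and 35.2 UPM in WT Icam1-like cells (log2 −1.80, −2.20 to −1.41; in cluster 2 alone −1.90, −2.30 to −1.50), 2.12 and 15.3 UPM in cluster 3 (log2 −2.85, −3.95 to −1.92), and 2.80 and 12.6 UPM in the Dpp4-like state (log2 −2.17, −3.18 to −1.28). The difference was smaller in the F3-like state, at 10.9 and 16.8 UPM (log2 −0.62, −1.08 to −0.17), and no Dkk2 UMI was found in cluster 6 of either library. The highest state was the F3-like one in transgenic and the Icam1-like one in WT cells, and in the transgenic library the 2 states, at 10.9 and 10.1 UPM, did not differ beyond counting error.

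A further cluster, cluster 7 with 61 transgenic and 66 WT cells, went the other way for Dkk2. It held both progenitor markers (9 of 9) and pericyte markers (8 of 8). The pericyte markers summed to 1503 UPM in transgenic and 1906 UPM in WT cells, against 8.18 to 145 UPM in the progenitor clusters. Cluster 7 was kept out of the progenitors. Dkk2 had 169 UPM in its transgenic and 81.6 UPM in its WT cells (log2 1.05, 0.65 to 1.45), in 23.0% and 27.3% of cells. The 5 richest cells held 76.1% of these UMIs in the transgenic and 50.6% in the WT library, so the higher level rests on a few cells. In the cells with fewer than 10 pericyte marker UMIs (48 transgenic, 46 WT) Dkk2 had 199 and 110 UPM, and in the others (13 and 20 cells) it had 0 UMIs in both libraries. With cluster 7 counted among the progenitors, Dkk2 had 11.8 UPM in transgenic and 20.8 UPM in WT cells (log2 −0.82, −1.02 to −0.61).

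Dkk3, a divergent Dickkopf protein, was somewhat lower in transgenic progenitors, at 8.65 UPM (7.55 to 9.87) against 11.4 UPM (10.1 to 12.8) in WT progenitors (log2 −0.39, −0.65 to −0.13). It was lower in the F3-like state, with 9.86 UPM in transgenic and 19.3 UPM in WT cells (log2 −0.97, −1.44 to −0.52), and in the Icam1-like state, with 1.79 and 5.32 UPM (log2 −1.57, −2.61 to −0.58). In the Dpp4-like state it was higher, with 17.5 and 12.1 UPM (log2 0.53, 0.05 to 1.02). Its highest level, in cluster 6, was 33.3 UPM in transgenic and 61.6 UPM in WT cells (log2 −0.89, −1.51 to −0.25).

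Dact1, which binds Dishevelled inside the cell and modulates Wnt signalling, was higher in transgenic progenitors, at 77.7 UPM (74.3 to 81.2) against 49.0 UPM (46.3 to 51.8) in WT progenitors, a 1.59-fold difference (log2 0.67, 0.56 to 0.77). At 5000 UMIs per cell it was seen in 21.8% (19.6 to 24.2) of transgenic and 16.5% (14.3 to 18.9) of WT progenitors. The Dpp4-like state held 48.0% of its UMIs in transgenic and 61.5% in WT progenitors.

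In the Dpp4-like state Dact1 had 224 UPM in transgenic and 123 UPM in WT cells (log2 0.86, 0.73 to 1.00), with a UMI in 90.3% and 73.8% of cells. It had 85.1 and 42.8 UPM in the F3-like state (log2 0.99, 0.77 to 1.21), 33.6 and 17.7 UPM in the Icam1-like state (log2 0.92, 0.56 to 1.30) and 37.5 and 17.3 UPM in cluster 3 (log2 1.11, 0.78 to 1.45). In cluster 6, with 17 transgenic and 4 WT UMIs, the interval of −1.01 to 2.63 included 0. The order of its states, Dpp4-like, F3-like and then the rest, was shared by both libraries.

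Dact1 and Sfrp2 were therefore highest in the same state and differed in opposite directions. Within single cells thinned to 5000 UMIs, Sfrp2 was seen in 3.99% of transgenic progenitors with a Dact1 UMI and 1.62% of those without, and in 28.2% and 11.0% of WT progenitors. Sfrp1 ran against Dact1, being seen in 27.2% of transgenic progenitors with a Dact1 UMI and 37.3% of those without, and in 15.5% and 27.5% of WT progenitors. Sfrp1 was more frequent among cells with an Rspo3 UMI, at 42.7% against 32% without in the transgenic library and 31.2% against 23.1% in the WT library. These pairings kept their order in both libraries, but not every pair did. Dact1 was seen in 64.7% of the 17 transgenic progenitors with a Wnt2 UMI and 21.2% of those without. In WT progenitors it was seen in 13.3% of the 15 with a Wnt2 UMI and 16.6% of those without. All these shares pool the progenitor states, so they also carry the differences in level between states.

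Set against all genes, the 10 were divided between the directions. At 10 UPM or more in a library, 8 of the 10 could be read over all progenitors, and Wnt2 and Wnt4 were below that level. At least 1.5-fold higher in transgenic progenitors were 2 of the 8, Wnt5b and Dact1, against 2.75% of the 8718 genes at that level. At least 1.5-fold lower were 2 of the 8, Sfrp2 and Dkk2, against 1.72% of all. The median log2 ratio was −0.05 over the 8 members and 0.09 over all genes. With every cell thinned to 5000 UMIs the log2 ratio of Dact1 was 0.51, which is within 1.5-fold. Since the members were picked with these ratios known, nothing is read from these shares.

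By state, 9 members could be read in the Dpp4-like state, with Sfrp1 and Dact1 higher (7.19% of all genes were) and Sfrp2 and Dkk2 lower (4.36%). In the F3-like state 8 could be read, with Sfrp1, Wnt5b and Dact1 higher (4.83%) and Sfrp2, Dkk2 and Dkk3 lower (3.00%). In the Icam1-like state 5 could be read, with Wnt5b and Dact1 higher (4.50%) and Dkk2 lower (5.29%). Dact1 is in each of these lists of higher genes and Dkk2 in each of the lists of lower ones. In cluster 3, 6 could be read, with Wnt5b and Dact1 higher (4.40%) and Sfrp2 and Dkk2 lower (4.32%). In cluster 6, with its 30 WT cells, 8 could be read, with Sfrp1 and Dact1 higher (17.3%) and Sfrp2, Sfrp4 and Dkk3 lower (13.7%).

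Of 81 other genes of the pathway, 38 were at 10 UPM or more in progenitors, and 36 of these lay within 1.5-fold. Higher in transgenic progenitors were 2 and lower were 0, against 2.75% and 1.72% of all genes, and the median log2 ratio was −0.06. Among the other ligands Wnt9a was higher, at 11.3 UPM in transgenic and 6.42 UPM in WT progenitors (log2 0.82, 0.54 to 1.11). Wnt5a, which mostly signals without β-catenin as Wnt5b does, had 160 and 184 UPM (log2 −0.21), and Wnt11 had 26.4 and 28.1 UPM (log2 −0.09). Wls, which carries Wnts to the cell surface, had 150 UPM in transgenic and 170 UPM in WT progenitors (log2 −0.17).

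Among the other secreted modulators, Rspo1, an R-spondin like Rspo3, had 24.8 UPM in transgenic and 31.6 UPM in WT progenitors (log2 −0.35). The receptors lay within 1.5-fold in all 13 cases that could be read, with Fzd7 at 15.4 and 20.5 UPM (log2 −0.41) and the Wnt5a receptor Ror1 at 361 and 278 UPM (log2 0.38). Of 17 intracellular genes that could be read, Nkd2, an inhibitor that binds Dishevelled, was higher, at 15.2 UPM in transgenic and 9.88 UPM in WT progenitors (log2 0.63, 0.39 to 0.86). The calls of Wnt9a and Nkd2 are narrow, since each was within 1.5-fold or under 10 UPM in at least 1 alternative. Nkd1, a relative of Nkd2, had 9.90 and 12.6 UPM (log2 −0.35). Axin2, a common readout of β-catenin signalling, had 15.7 UPM in transgenic and 15.2 UPM in WT progenitors (log2 0.05, −0.15 to 0.26), and the target Myc had 144 and 215 UPM (log2 −0.58), just within 1.5-fold.

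**Figure D5:**
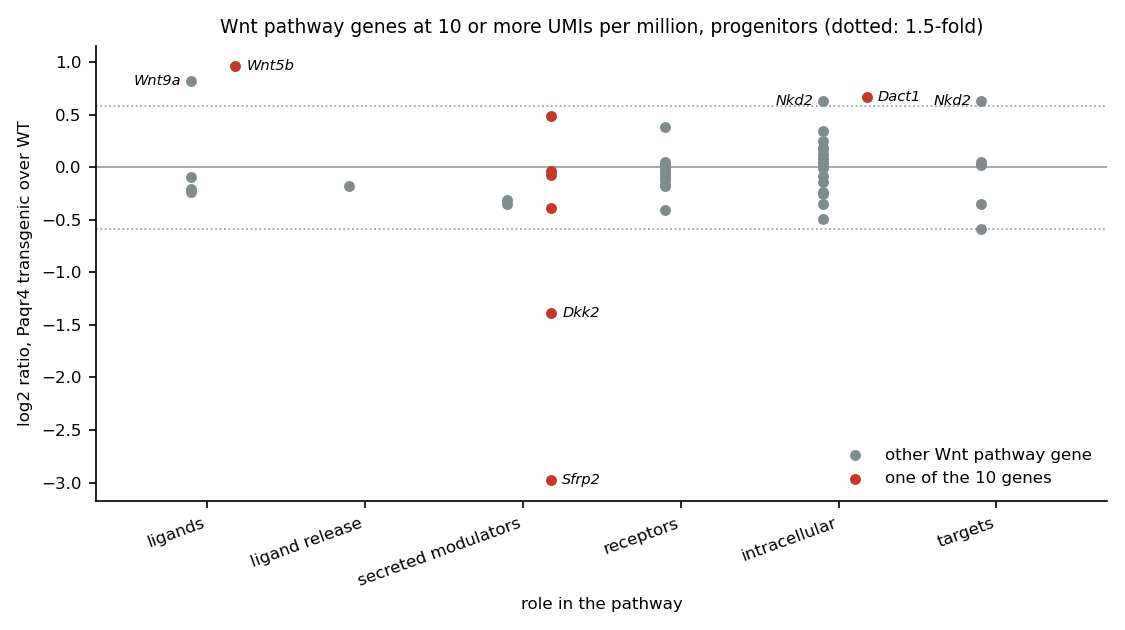
Log2 ratio of UPM over all progenitors, Paqr4 transgenic over WT, of the 8 members (red) and the 38 other Wnt pathway genes (grey) at 10 UPM or more, by role in the pathway, with dotted lines at 1.5-fold. Genes with more than 1 role are drawn in each. All but 2 of the 38, Wnt9a and Nkd2, lie within 1.5-fold, while Sfrp2 and Dkk2 lie below that range and Wnt5b and Dact1 above it.

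Genes with the most similar pattern were taken from 7241 candidates by Pearson's correlation of log2(UPM + 1) over 8 points, the 4 states with at least 50 cells in each library. The points share their library and its depth, and with so few of them the coefficients are a description. Closest to Dact1 were Ntn4 (0.991), Utrn and Arhgap20, and closest to Sfrp2 were Gprc5b (0.976), Aif1l and Rpl41. Closest to Sfrp1 were Deptor (0.992), Auts2 and Ctsc, to Wnt2 Rassf3 (0.997), Flnc and Fyn, and to Rspo3 Pcdhgc3 (0.989), Myorg and Mrvi1. Wnt5b had the weakest best match, Sparc (0.932). Cluster 6, where Wnt5b, Wnt4 and Dkk3 were highest, was not among the 4 states, since it held 30 WT cells. Among the 10 genes themselves, Dact1 and Wnt2 were alike (0.917) and Sfrp1 and Sfrp2 were opposed (−0.903).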

How the data were processed

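Droplet single-cell RNA-seq (Single Cell 3' v2 chemistry, per the labels' protocols) was made of 2 libraries, 1 from Paqr4 transgenic and 1 from WT mice. The authors deposited unnormalised UMI counts per gene and barcode for all barcodes, 32286 features each. Per the submitters' processing notes these came from Cell Ranger 7.0.0 with mm10, while per the file headers the version was Cell Ranger 4. Features were summed by symbol (32246 symbols).

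Barcodes passed as cells (1525 transgenic and 1329 WT) when they had at least 1000 UMIs and 500 genes, with mitochondrial RNA making up no more than 10%. Scrublet in each library marked 4 and 1 of them as doublets (0.262% and 0.0752%), which were removed. Counts scaled to 10000 per cell and log-transformed were clustered over both libraries without batch correction (2000 variable genes without the Wnt genes, 30 components, 15 neighbours, Leiden resolution 0.5, scanpy 1.11.5, leidenalg 0.10.2, Python 3.11.15). A cluster took the name of a cell class where at least 50% of its marker list, and at least 3 markers, reached 20 UPM and 25% of their highest level. A progenitor cluster took the name of a state where at least 3 of the state's markers reached 20 UPM and 1.5 times their level in the other progenitors. Totals in cells were 28230354 transgenic and 28418301 WT UMIs, and 3 UMIs in progenitors are 0.117 and 0.120 UPM.

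Levels are UPM (UMIs per 1000000 UMIs of the class), with exact Poisson intervals. Shares have exact Clopper-Pearson intervals, and ratios exact conditional binomial intervals (scipy 1.17.1), checked on simulated data. The genes named are the 10 members, for the pathway up to 4 per role, and the most alike genes. The members and lists were chosen with earlier results of these data known, and the 10-UMI limits for cluster 7 and for grey places in the plot by state after values were seen. Promoters came from RefSeq (GRCm38.p6) and positions from GENCODE M21. Alternatives were other cell filters, doublets kept, other clusterings, weights, thinning, centring and subtraction of free RNA.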

Additional observations from a re-analysis of the deposited data

Results flagged for a closer look

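For 3 members the ratio between the libraries had opposite signs in different cell classes, with intervals that did not include 0. These differences between classes were not tested, since there is 1 library per genotype. The intervals also leave out the spread between cells. Sfrp4 was higher in transgenic F3-like cells (log2 0.46) and lower in transgenic cluster 7 cells (log2 −2.45), where it had 7.56 UPM in transgenic and 41.3 UPM in WT cells. The cluster 7 values come from 6 transgenic and 44 WT UMIs. At 5000 UMIs per cell Sfrp4 was seen there in 1 of 54 transgenic and 5 of 64 WT cells. Dkk2 was higher in transgenic cluster 7 cells (log2 1.05), where a few cells held most of its transgenic UMIs. It was lower in the 4 progenitor states that held it, with its lowest ratio in cluster 3 (log2 −2.85). Dkk3 was higher in transgenic Dpp4-like cells (log2 0.53) and lower in transgenic Icam1-like cells (log2 −1.57).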

How the results depend on the processing

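All 10 members kept the sign of their progenitor ratio in the 14 alternatives. The log2 ratio ran over −3.07 to −2.64 for Sfrp2, 0.61 to 0.97 for Wnt5b, 0.51 to 0.91 for Dact1, 0.24 to 0.50 for Sfrp1 and 0.04 to 1.08 for Wnt4. Dkk2 ran over −1.94 (each library clustered on its own) to −0.80 (Wnt genes kept in the clustering). Values near that upper end were not confined to this setting. The log2 ratio of Dkk2 was −0.82 with doublets kept, at 2000 or more UMIs, at resolution 0.3 and with cluster 7 counted. With at most 5% mitochondrial UMIs it was −0.83. Of the members at least 1.5-fold higher (2), 1 was left with cells thinned to 5000 UMIs and with ratios centred on the median gene, Wnt5b in both. Members at least 1.5-fold lower (2) became 3 with equal weight per state, which added Dkk3 (log2 −0.67). In that setting Sfrp4 had its lowest log2 ratio, −0.54, as did Rspo3, −0.28. Of the pathway genes at least 1.5-fold higher (2), 1 was left with doublets kept and with centring (Wnt9a) and with thinning (Nkd2), and 0 at a limit of 50 UPM. Pathway genes at least 1.5-fold lower (0) became 1, Myc, with doublets kept, at 2000 or more UMIs, at most 5% mitochondrial UMIs, equal weight per cell and centring, and 2, Dact2 and Fzd7, with thinning. The causes were not tested. In the Dpp4-like state, log2 ratios over 8 clusterings (7 of both libraries together, and 1 of each library on its own) ran over −2.56 to −2.31 for Sfrp2 and 0.86 to 1.04 for Dact1. Counting cluster 7 among the progenitors, and reading clusters 2 and 9 of the Icam1-like state apart, were chosen after seeing the data. No paired analysis was possible because there is 1 library per genotype.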

Other observations

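In cluster 7, outside the progenitors, Sfrp1 had 325 UPM in transgenic and 313 UPM in WT cells, Rspo3 had 185 and 253 UPM, and Dact1 had 73.1 and 46.0 UPM (log2 0.67). Dkk2 and Sfrp1 met in single progenitors thinned to 5000 UMIs: Sfrp1 was seen in 70.8% of the 24 transgenic cells with a Dkk2 UMI and 34.4% of those without, and in 36.5% of the 52 such WT cells and 24.95% of those without. Sfrp4 was seen in 13.4% of transgenic progenitors with a Dact1 UMI and 5.97% of those without, and in 16.7% and 6.02% of WT progenitors. In the free RNA, Wnt5b had 19.2 UPM in the transgenic and 6.32 UPM in the WT library, Dact1 had 36.9 and 21.7 UPM, Sfrp1 had 74.8 and 37.9 UPM, and Dkk2 had 12.6 and 9.63 UPM. The order of Dkk2 there was the opposite of its order in progenitors and the same as in cluster 7. These are values of 2 libraries, the shares with and without a second gene pool the progenitor states, and no test was run on them.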
